A study of Homo sapiens with 11 samples.

Results

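The genes described here are 35 members of the integrated stress response and the unfolded protein response, out of 45965 genes in the deposited table. They were taken by symbol, none of their symbols was repeated, and all 35 passed the filter on low counts, which kept 16324 genes. They were divided by role into 20 genes of an ATF4 arm, 9 genes of an XBP1 and ATF6 arm, and 6 sensors and regulators. The cells were H1299, a human non-small cell lung carcinoma line in which p53 is absent, stably transfected with mutant p53. The construct carried the hotspot mutation R273H or R175H, each on the arginine (R72) or the proline (P72) form of the codon 72 polymorphism. The groups held 1 R273H R72 library, 4 R273H P72 libraries, 3 R175H R72 libraries and 3 R175H P72 libraries. All cells had received 5 µg of DNA with Fugene and 14 days of neomycin at 800 µg per ml. No group without mutant p53 was analysed here, so each comparison sets one mutant form against another. The labels do not say whether the selected cells were pools or single clones, nor what promoter drove the constructs, and whether each library carried its labelled construct was not checked here.

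The integrated stress response begins with kinases such as PERK (EIF2AK3) and GCN2 (EIF2AK4), which phosphorylate the initiation factor eIF2. General translation falls while ATF4 mRNA is translated more, and ATF4 then activates genes of amino acid uptake and synthesis together with feedback regulators. Unfolded protein in the endoplasmic reticulum (ER) also activates IRE1 (ERN1), which splices XBP1 mRNA, and ATF6, which is cleaved into a transcription factor; both raise chaperones and degradation factors of the ER. Because ATF4 is controlled mainly in translation and XBP1 by splicing, the 3′ mRNA tags counted here measure the mRNA levels of these factors and neither ATF4 protein nor XBP1 splicing.

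The members' promoters were searched for binding elements of the 2 arms. Of those with a match, 5 are shown because they carry an element before the RefSeq start site of a gene described below. Windows from 250 bases before to 50 bases after each RefSeq start site were had for 34 of 35 members, in 50 windows (RefSeq, GRCh38.p14). The ATF4 composite element was searched as TGATGNAA on both strands, and the ER stress element as CCAAT, then 9 bases, then CCACG, also on both strands. Capitals mark the element in the strand of the gene. In CHAC1 and CRELD2 it reads as the reverse complement.
ASNS: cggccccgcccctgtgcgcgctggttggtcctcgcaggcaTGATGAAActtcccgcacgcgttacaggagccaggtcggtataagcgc
CHAC1: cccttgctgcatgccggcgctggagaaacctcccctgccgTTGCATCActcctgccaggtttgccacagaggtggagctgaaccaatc
HSPA5: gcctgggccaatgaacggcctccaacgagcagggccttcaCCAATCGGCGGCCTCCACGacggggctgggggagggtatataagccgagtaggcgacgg
HSP90B1: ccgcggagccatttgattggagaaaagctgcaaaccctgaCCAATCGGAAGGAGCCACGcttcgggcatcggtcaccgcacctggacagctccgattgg
CRELD2: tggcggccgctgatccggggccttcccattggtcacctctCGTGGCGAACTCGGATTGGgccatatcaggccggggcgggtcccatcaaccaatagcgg

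The ASNS stretch lies at chr7:97872429-97872516 on the minus strand and the CHAC1 stretch at chr15:40953222-40953309 on the plus strand. The HSPA5 stretch lies at chr9:125241351-125241449 on the minus strand, that of HSP90B1 at chr12:103930176-103930274 and that of CRELD2 at chr22:49918514-49918612, both on the plus strand. RefSeq start sites differ from those of the annotation that gave the gene spans in the text, and the ASNS, CHAC1, HSP90B1 and CRELD2 stretches lie inside the spans that annotation gives. HSP90B1 holds another ER stress element, in the opposite orientation and not shown, at chr12:103930281-103930379. The composite element was found in 10 members, of which 8 belong to the ATF4 arm (ATF3, ASNS, CHAC1, CEBPG, SLC3A2, SLC7A1, SLC1A4 and SLC1A5), the other two being HERPUD1 and PPP1R15B. It stood in 10 of the members' 50 windows and in 3.62% of all 35116 windows. The ER stress element was found in 4 members (HSPA5, HSP90B1, XBP1 and CRELD2), all of the XBP1 and ATF6 arm, and in 0.0769% of all windows. Another element of the unfolded protein response, TGACGTGG on both strands, matched no member's window and 0.729% of all windows. A match describes the letters of the window and is not a measured binding site.

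Total counts per library lay between 8346926 and 12829560 and mitochondrial genes took 4.03% to 5.52% of them. The labels put R273H P72 replicates 2, 3 and 4 and R175H R72 replicate 1 in batch b1 and the other 7 libraries in batch b2, so all R175H P72 libraries are b2 and R273H P72 replicate 1 is the only b2 library of its group. Nothing in the labels states that the replicates came from separate cultures, and p-values therefore measure a spread among libraries that can be technical. KRT8, KRT18, VIM and CDH2 were present in every library, EPCAM and CDH1 stayed under 1 CPM, and the summed markers of leukocytes, endothelial cells, fibroblasts and hepatocytes reached at most 6.45 CPM, against at least 2180 CPM for the 6 markers of the line. Libraries also differed in how counts followed GC content, taken over the final 500 nt at the 3′ end of each gene's transcripts. The slope per 10% GC was -0.093 log2 units in R273H R72, -0.071 in R273H P72 replicate 1 and 0.041 to 0.055 in the other R273H P72 libraries. It was 0.088 in R175H R72 replicate 1, -0.091 and -0.061 in R175H R72 replicates 2 and 4, and 0.014 to 0.043 in R175H P72.

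Levels are in CPM, the counts of a gene scaled to a common library size with TMM factors, and differences are log2 fold changes with their standard error (SE) from edgeR's quasi-likelihood test with batch as a term, Benjamini-Hochberg adjusted over all genes tested and called at 0.05. Because the tags come from whole cultures, fewer cells with an mRNA and less of it per cell cannot be told apart.

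**Figure D1:**
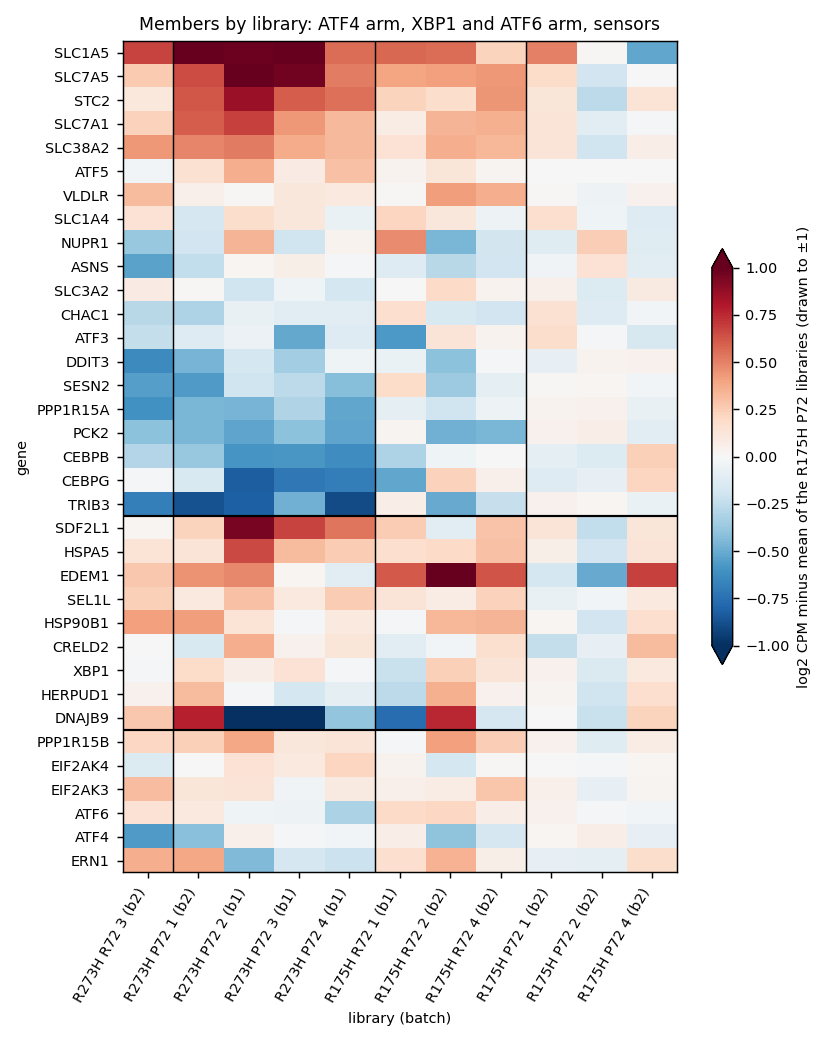
Each of the 35 members (down) in each of the 11 libraries (across, with batch in brackets) as log2 CPM minus the mean of the R175H P72 libraries; horizontal lines part the ATF4 arm, the XBP1 and ATF6 arm and the sensors and regulators. The ATF4 arm splits within the R273H P72 libraries, with SLC7A5, STC2, SLC7A1 and SLC38A2 above and TRIB3, PCK2, SESN2 and PPP1R15A below the R175H P72 mean in all 4.

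The question of the hotspot comparison on P72 is how cells with R273H differ from cells with R175H. In R273H P72 cells 13 of 35 members changed, 5 higher and 8 lower, which is 37.1% of the members beside 14.6% of all genes tested. With a filter at 10 CPM in 3 libraries, which leaves the better expressed genes, 16 members were called, beside 25.4% of genes then tested. The counts that follow keep the filter described above. The ATF4 arm moved in both directions: regulators and stress effectors (TRIB3, SESN2, PCK2, PPP1R15A, DDIT3, CEBPB, CHAC1) were lower, by log2 changes of -0.35 to -0.97, while 3 amino acid transporters (SLC7A5, SLC7A1, SLC38A2) and STC2 were higher, by 0.52 to 0.74. ATF4 itself was lower. Of the XBP1 and ATF6 arm 1 of 9 genes passed, HSP90B1, which was higher. The median log2 change in the fit with batch was -0.14 over the ATF4 arm, 0.33 over the XBP1 and ATF6 arm and 0.003 over all genes tested. Per library, with no batch term, medians were taken against the R175H P72 mean. For the XBP1 and ATF6 arm they were 0.22, 0.29, 0.04 and 0.10 in R273H P72 replicates 1 to 4. They were 0.02, -0.19 and 0.17 in R175H P72, so the groups overlapped. For the ATF4 arm the medians were -0.16, -0.02, -0.07 and -0.05 in R273H P72 replicates 1 to 4. In R175H P72 they were 0.04, -0.03 and -0.02, so these groups overlapped as well. Every library of R273H P72 stood above every library of R175H P72 for 8 of 35 members (STC2, SLC7A5, SLC7A1, SLC38A2, SLC1A5, ATF5, SDF2L1 and PPP1R15B), beside 14% of all genes. It stood below for 6 of 35 (TRIB3, SESN2, PCK2, PPP1R15A, CEBPB and CEBPG), beside 14.1%, so the count below is near the share of all genes.

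**Figure D2:**
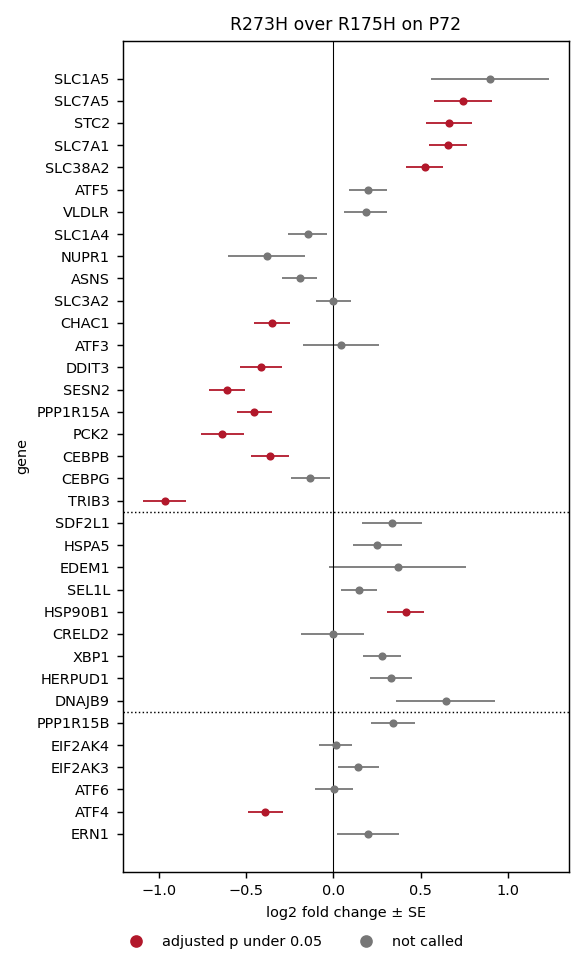
Log2 fold change of R273H P72 (4 libraries) over R175H P72 (3 libraries) for each member, with its SE; dotted lines part the ATF4 arm (top), the XBP1 and ATF6 arm and the sensors and regulators (bottom), and red marks the 13 called members. The called ATF4 arm genes lie on both sides of 0, from TRIB3 at -0.97 to SLC7A5 at 0.74, and 8 of 9 genes of the XBP1 and ATF6 arm have positive values.

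TRIB3 (ENSG00000101255, chr20:362835-397559) encodes a pseudokinase that feeds back on ATF4. It measured 207, 215, 272 and 204.5 CPM in R273H P72 replicates 1 to 4, against 391, 386 and 363 CPM in R175H P72 replicates 1, 2 and 4. All 4 R273H P72 libraries lay below all R175H P72 libraries, and TRIB3 fell by 0.97 on the log2 scale (SE 0.12, edgeR adjusted p = 7.19e-05). The R273H R72 library was also low, at 237 CPM, while R175H R72 had 396 CPM in its b1 library and 268 and 323 CPM in its b2 libraries.

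SESN2 (ENSG00000130766, chr1:28259527-28282491), the gene of sestrin 2, a leucine sensor that restrains mTORC1, measured 296, 382, 367 and 327 CPM in R273H P72, against 442, 445 and 430.5 CPM in R175H P72. The groups did not overlap, and SESN2 fell by 0.61 (SE 0.10, edgeR adjusted p = 0.000471), and by 0.36 with no batch term, where it was still called. R273H R72 had 299.7 CPM and R175H R72 had 498, 342 and 412 CPM, the highest of them in b1. PCK2, mitochondrial phosphoenolpyruvate carboxykinase, was at 40.7, 38.7, 42.0 and 38.7 CPM in R273H P72, against 57.4, 58.5 and 51.8 CPM in R175H P72. It fell by 0.64 (SE 0.12, edgeR adjusted p = 0.00151), with -0.99 without R273H P72 replicate 1 and -0.46, not called, in batch b2 alone. R273H R72, at 42.0 CPM, and the b2 libraries of R175H R72, at 39.9 and 40.6 CPM, lay within or close to the R273H P72 range, whereas the b1 library of R175H R72 had 57.0 CPM.

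PPP1R15A encodes GADD34, the stress-induced subunit that directs dephosphorylation of eIF2. It was at 102, 101, 114 and 97.3 CPM in R273H P72, against 143, 144 and 133 CPM in R175H P72, with no overlap (log2 change -0.45, SE 0.10, edgeR adjusted p = 0.00387). R273H R72 was lowest of the 11 libraries at 91.7 CPM, and R175H R72 had 131, 122 and 135 CPM, the highest of them within the R175H P72 range. The last 500 nt of PPP1R15A are 61.9% GC and those of TRIB3 60.2%. With a correction for GC content PPP1R15A had -0.27 and was no longer called, while TRIB3 had -0.82 and was called.

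DDIT3, the transcription factor CHOP, was at 101, 124, 109.8 and 136 CPM in R273H P72, against 132, 143 and 144 CPM in R175H P72, and the groups overlapped by a single library. It fell by 0.42 (SE 0.12, edgeR adjusted p = 0.0234), but was not called with no batch term (-0.25) or in batch b2 alone (-0.47). R273H R72 was lowest of all libraries at 90.0 CPM, and R175H R72 had 134, 105 and 138 CPM. DDIT3 shares exon sequence with MARS on the opposite strand, whose counts were 227% of its own, and since no source used here states whether counting used strand, the tags of the pair cannot be told apart.

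CEBPB, a transcription factor that pairs with ATF4, was at 235, 203, 205 and 199 CPM in R273H P72, against 286, 278 and 361 CPM in R175H P72, without overlap (-0.37, SE 0.11, edgeR adjusted p = 0.0262), and was not called in batch b2 alone (-0.39). R273H R72 had 250.4 CPM and R175H R72 had 247, 297 and 307 CPM. CHAC1, an enzyme that breaks down glutathione, was at 76.1, 89.4, 87.4 and 87.7 CPM in R273H P72, against 105, 86.2 and 92.4 CPM in R175H P72 (-0.35, SE 0.10, edgeR adjusted p = 0.0219). Its groups overlapped, R273H R72 had 77.8 CPM and R175H R72 had 106, 84.8 and 82.6 CPM. CHAC1 was among the less firm calls: the value was -0.21 and not called with the correction for GC content, -0.15 and not called with no batch term, and -0.31 and not called in batch b2 alone.

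Of the 6 transporter genes of the arm 3 were higher (SLC7A1, SLC38A2 and SLC7A5) and 3 did not pass (SLC3A2, SLC1A4 and SLC1A5). SLC7A1 (ENSG00000139514, chr13:29509410-29595688), a carrier of cationic amino acids such as arginine, was at 262, 275, 232 and 215 CPM in R273H P72, against 188, 158 and 170.2 CPM in R175H P72. The groups did not overlap, and SLC7A1 rose by 0.66 (SE 0.11, edgeR adjusted p = 0.000471). R273H R72, at 201 CPM, stood below all 4 R273H P72 libraries, and R175H R72 had 181, 217 and 219.9 CPM.

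SLC38A2, a sodium-coupled carrier of neutral amino acids, was at 1898, 1938, 1750 and 1697 CPM in R273H P72, against 1483, 1180 and 1423 CPM in R175H P72 (0.52, SE 0.11, edgeR adjusted p = 0.00243). No library overlapped, R273H R72 had 1833 CPM, and R175H R72 had 1496, 1739 and 1707 CPM, all above R175H P72. SLC7A5, the light chain of the large neutral amino acid exchanger LAT1, was at 2834, 3914, 3518 and 2569 CPM in R273H P72, against 2046, 1579 and 1805 CPM in R175H P72. It rose by 0.74 (SE 0.17, edgeR adjusted p = 0.00969), R273H R72 had 2161 CPM, and the 3 R175H R72 libraries lay close together at 2362, 2395 and 2437 CPM. SLC3A2, the heavy chain that SLC7A5 needs at the membrane, did not pass, with a log2 change of -0.0013 (SE 0.10), and its 11 libraries ranged over 283 to 372 CPM.

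STC2, a secreted glycoprotein induced by ER stress, was at 544, 645, 539 and 519 CPM in R273H P72, against 386, 295 and 390.1 CPM in R175H P72. It rose by 0.66 (SE 0.13, edgeR adjusted p = 0.00286) with no overlap. R273H R72, at 381 CPM, stood with the R175H P72 libraries, and R175H R72 had 412, 401 and 481 CPM.

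**Figure D3:**
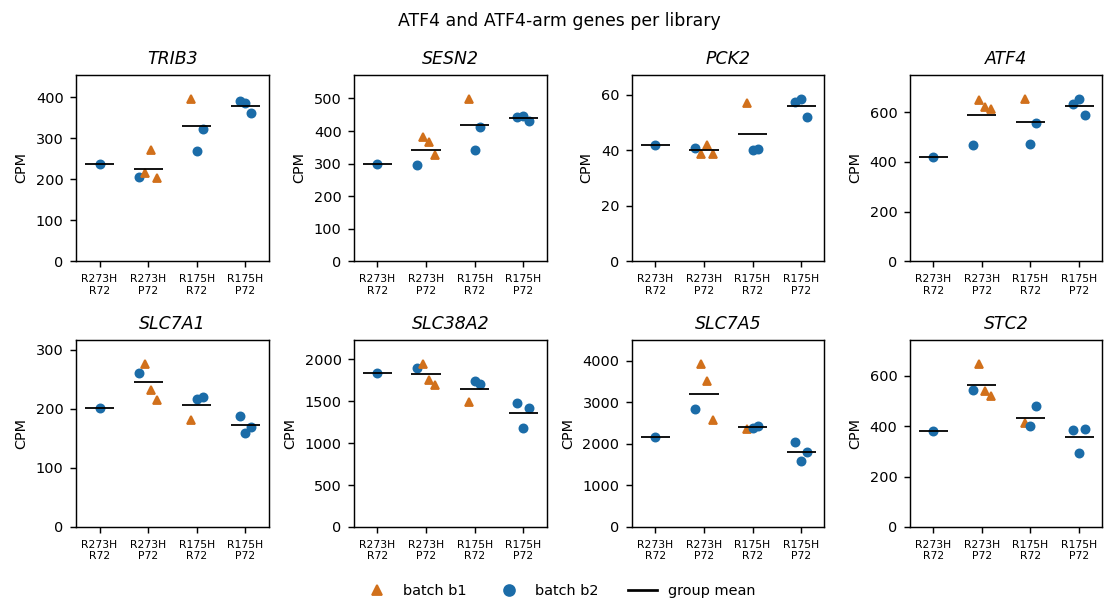
CPM in each library for ATF4 and 7 called genes of its arm, by group, with triangles for batch b1, circles for b2 and a line at the group mean. TRIB3, SESN2, PCK2 and ATF4 are in the top row, where only ATF4 overlaps between R273H P72 and R175H P72; the bottom row has SLC7A1, SLC38A2, SLC7A5 and STC2, with all R273H P72 libraries above R175H P72.

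Of the ATF4 arm 9 genes did not pass. ASNS, asparagine synthetase and a classical ATF4 target, was at 979.7, 1177, 1214 and 1149 CPM in R273H P72, against 1133, 1285 and 1082 CPM in R175H P72. Its groups overlapped and its log2 change was -0.19 (SE 0.10, edgeR adjusted p = 0.219). R273H R72 was lowest of all libraries at 801 CPM, and R175H R72, at 1064, 960.4 and 1018 CPM, lay below every R175H P72 library. SLC1A5, the glutamine carrier ASCT2, ranged over 196 to 633 CPM across the 11 libraries. All 4 R273H P72 libraries, at 585, 555, 633 and 414 CPM, were above the R175H P72 libraries at 398, 284 and 196 CPM, with a log2 change of 0.90 (SE 0.34, edgeR adjusted p = 0.146).

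The transcription factors ATF3 (0.04, SE 0.22), ATF5 (0.20, SE 0.11) and CEBPG (-0.13, SE 0.11) did not pass. CEBPG, a partner of C/EBP proteins and ATF4, was at 112 CPM in R273H P72 replicate 1 and 70.2 to 77.0 CPM in the b1 libraries of that group, against 114 to 144 CPM in R175H P72. All R273H P72 libraries of CEBPG were thus below R175H P72, but only its b1 libraries were far below. ATF5 overlaps NUP62 on the opposite strand, whose counts were 171% of its own, and VLDLR overlaps VLDLR-AS1, at 35.4%. The carrier SLC1A4 (-0.15, SE 0.11), the lipoprotein receptor VLDLR (0.19, SE 0.12) and the stress-induced chromatin protein NUPR1 (-0.38, SE 0.22) also did not pass. Over the 11 libraries ATF3 and NUPR1 were low, at 6.05 to 10.2 CPM and 6.55 to 12.5 CPM. ATF5 ranged over 48.5 to 63.7 CPM, SLC1A4 over 57.7 to 75.2 CPM and VLDLR over 32.3 to 44.6 CPM.

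Among the sensors and regulators 1 of 6 passed. ATF4 (ENSG00000128272, chr22:39519695-39522685) was at 468, 647, 620.2 and 613 CPM in R273H P72, against 633, 653 and 588 CPM in R175H P72. It fell by 0.39 (SE 0.10, edgeR adjusted p = 0.00987) in the fit with batch, but the libraries overlapped: only replicate 1, in b2, lay below R175H P72, and the 3 b1 libraries did not. Without the batch term the value was -0.09, and in batch b2 alone, with 1 R273H P72 library, it was -0.42; neither was called. R273H R72 had the lowest level, 421 CPM, and R175H R72 had 653 CPM in b1 and 474 and 556 CPM in b2.

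The kinase genes EIF2AK3 (0.14, SE 0.12) and EIF2AK4 (0.01, SE 0.09) did not pass, nor did ERN1 (0.20, SE 0.18), ATF6 (0.0032, SE 0.11) or PPP1R15B (0.34, SE 0.12, edgeR adjusted p = 0.0693), the subunit that keeps eIF2 dephosphorylated in unstressed cells. EIF2AK4 ranged over 114 to 149 CPM across the 11 libraries, EIF2AK3 over 31.7 to 41.6 CPM and PPP1R15B over 41.1 to 59.2 CPM. ATF6 mRNA lay between 70.5 and 101 CPM and ERN1 between 10.2 and 18.1 CPM.

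HSP90B1 (ENSG00000166598, chr12:103930107-103953645), the ER chaperone GRP94, was at 1054, 865, 779 and 844 CPM in R273H P72, against 798, 689 and 887 CPM in R175H P72. It rose by 0.41 (SE 0.11, edgeR adjusted p = 0.0103), but its groups overlapped, since the b1 libraries of R273H P72 lay among the R175H P72 libraries and replicate 1 above them. With no batch term the value was 0.16 and in batch b2 alone 0.41, neither of them called. R273H R72 had 1047 CPM, and R175H R72 had 782 CPM in b1 and 991 and 998 CPM in b2.

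HSPA5, the chaperone BiP, was at 4127, 5989, 4708 and 4503 CPM in R273H P72, against 3947, 3313 and 4134 CPM in R175H P72 (0.25, SE 0.14, edgeR adjusted p = 0.252). R273H R72 had 4163 CPM and R175H R72 had 4258, 4321 and 4631 CPM. XBP1 itself was at 222, 205, 216 and 194 CPM in R273H P72, against 202, 178 and 210.1 CPM in R175H P72, with R273H R72 at 195 CPM and R175H R72 at 168, 232 and 214 CPM. Its log2 change was 0.28 (SE 0.11, edgeR adjusted p = 0.085).

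Of the other 6 genes of this arm none passed. SDF2L1, a cofactor of BiP, stood at 109 to 181 CPM in R273H P72 and 78.8 to 102 CPM in R175H P72, without overlap (0.34, SE 0.17). The ER-associated degradation genes HERPUD1 (0.33, SE 0.12), EDEM1 (0.37, SE 0.39) and SEL1L (0.15, SE 0.10) had positive values, EDEM1 at only 1.36 to 4.44 CPM. CRELD2, which overlaps ALG12 on the opposite strand at 43.0% of its own counts, had -0.01 (SE 0.18). Over the 11 libraries HERPUD1 ranged over 56.2 to 86.2 CPM, SEL1L over 95.2 to 123 CPM and CRELD2 over 19.9 to 30.1 CPM. DNAJB9, a co-chaperone of BiP, had 0.64 (SE 0.28) but was at 27.1 CPM in R273H P72 replicate 1 and at 7.16, 7.5 and 12.1 CPM in the b1 libraries, against 13.6 to 18.5 CPM in R175H P72. DNAJB9 overlaps THAP5 on the opposite strand, whose counts were 205% of its own.

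**Figure D4:**
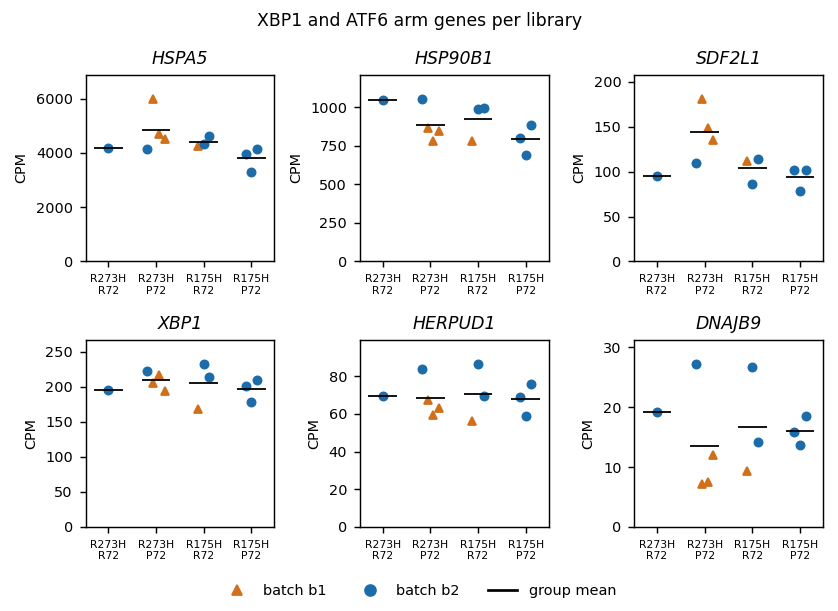
CPM in each library for 6 genes of the XBP1 and ATF6 arm, by group, with triangles for batch b1, circles for b2 and a line at the group mean. SDF2L1 alone of the 6 has all R273H P72 libraries above R175H P72, and DNAJB9 and HERPUD1 lie lower in the b1 libraries of R273H P72 than in its b2 library.

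Wider lists of genes of the same pathways, written from general knowledge with earlier results of these data known, were counted beside the members. Their counts are therefore not independent of these data. The share of all genes called for the hotspot on P72 was 25.4% with the filter at 10 CPM in 3 libraries. Of 30 further ATF4 targets 28 were tested, of which 11 were lower in R273H P72 and 1 was higher, in all 42.9% beside 14.6% of all genes tested. Those with the smallest p were SHMT2, of mitochondrial serine use (-0.92, SE 0.11), EIF4EBP1, the translation repressor (-0.99, SE 0.13), and the aminoacyl-tRNA synthetase genes AARS (-0.68, SE 0.10) and WARS (-0.73, SE 0.11). The 1 that was higher was SLC7A11, the cystine carrier (0.70, SE 0.11), which was named after its value was seen. Of 32 further XBP1 and ATF6 targets 30 were tested, of which 12 were higher and 1 was lower, in all 43.3%. SRPRB, a subunit of the signal recognition particle receptor (1.00, SE 0.11), DERL1, of ER-associated degradation (0.52, SE 0.10), SSR1, of the translocon (0.46, SE 0.10), and DNAJB11, a co-chaperone of BiP (0.51, SE 0.12), had the smallest p, and the one lower gene was SEC31A of the COPII coat (-0.40, SE 0.12), likewise named after its value was seen. Of 17 other sensors and regulators tested, NFE2L1 passed (0.48, SE 0.10), which is 5.88%.

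The counts of the 13 members and of the wider lists leaned on single libraries. Without R273H P72 replicate 1 the members called were 6, the wider ATF4 targets 7 and the wider XBP1 and ATF6 targets 8, and of all genes 7.72% were called in place of 14.6%. In batch b2 alone they were 7, 9 and 3, beside 5.38% of all genes. The wider XBP1 and ATF6 count was also 4 without R175H R72 replicate 1, beside 7.46% of all genes, and 6 without R175H P72 replicate 2, beside 9.94%. TRIB3, SESN2, STC2, SLC7A1 and SLC38A2 were called in all 11 fits that left out a library and in all 10 other settings tried. Without R273H P72 replicate 1 the calls of PPP1R15A (-0.45), ATF4 (-0.34), HSP90B1 (0.42), DDIT3 (-0.32), CEBPB (-0.32), CHAC1 (-0.43) and SLC7A5 (0.92) were lost, with their direction kept. Without R175H R72 replicate 1, the b1 library of its group, those of DDIT3 (-0.47), CEBPB (-0.39), CHAC1 (-0.31) and SLC7A5 (0.65) were lost. Among the R175H P72 libraries, the calls of DDIT3 (-0.40) and HSP90B1 (0.32) were lost without replicate 2, those of CEBPB (-0.24) and SLC7A5 (0.74) without replicate 4, and that of CHAC1 (-0.275) without replicate 1.

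The codon 72 comparison on R175H asks whether the arginine form differs from the proline form beside the same hotspot. On R175H 0 of 35 members passed, beside 1.13% of all genes tested (edgeR), and 14 of 35 (40%) had an unadjusted p under 0.05, beside 13.6% of all genes. With the filter at 10 CPM in 3 libraries 13 members had such a p, beside 18.1% of genes then tested. DESeq2 called 3 (SLC38A2, HSP90B1 and ATF4) and limma-voom called 0. PCK2 passed without R175H R72 replicate 1 (-0.47) or without R273H P72 replicate 1 (-0.47), HSP90B1 without R175H P72 replicate 4 (0.42) and ATF4 without R175H R72 replicate 4 (-0.39). The smallest p belonged to HSP90B1, with a log2 value of 0.33 for R72 over P72 (SE 0.09, edgeR adjusted p = 0.0899), and to ATF4, with -0.29 (SE 0.09, edgeR adjusted p = 0.101). SLC38A2 (0.32), SLC7A1 (0.32), VLDLR (0.32), SLC7A5 (0.37) and STC2 (0.28) had positive values, and PCK2 (-0.37), TRIB3 (-0.31), ASNS (-0.27), DDIT3 (-0.23) and SESN2 (-0.20) negative ones, none of them called. All R175H R72 libraries lay above all R175H P72 libraries for 7 of 35 members (ATF5, STC2, SLC7A5, SLC38A2, HSPA5, EIF2AK3 and ATF6), beside 6.81% of all genes, and below for ASNS alone, beside 6.15%. This comparison shares the R175H P72 libraries with the hotspot comparison, so their values are not independent. Of the wider lists SRPRB alone passed (0.41, SE 0.10, edgeR adjusted p = 0.0427).

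Within R273H, where R72 rests on 1 library that was assumed to vary like the others, 0 of 35 members passed, beside 0% of all genes (edgeR). At an unadjusted p under 0.05 there were 5 members (14.3%), beside 7.75% of all genes: STC2 (-0.57, SE 0.18), SLC7A1 (-0.43, SE 0.15), ASNS (-0.35, SE 0.13), SLC7A5 (-0.49, SE 0.22) and XBP1 (-0.29, SE 0.14), all with lower values on R72. DESeq2 called 1 of them, STC2, and limma-voom called 0. With the filter at 10 CPM in 3 libraries 4 members had such a p, beside 10.5% of genes then tested, so the count is near that share. The R273H P72 libraries are also those of the hotspot comparison on P72, so the values of both are not independent.

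**Figure D5:**
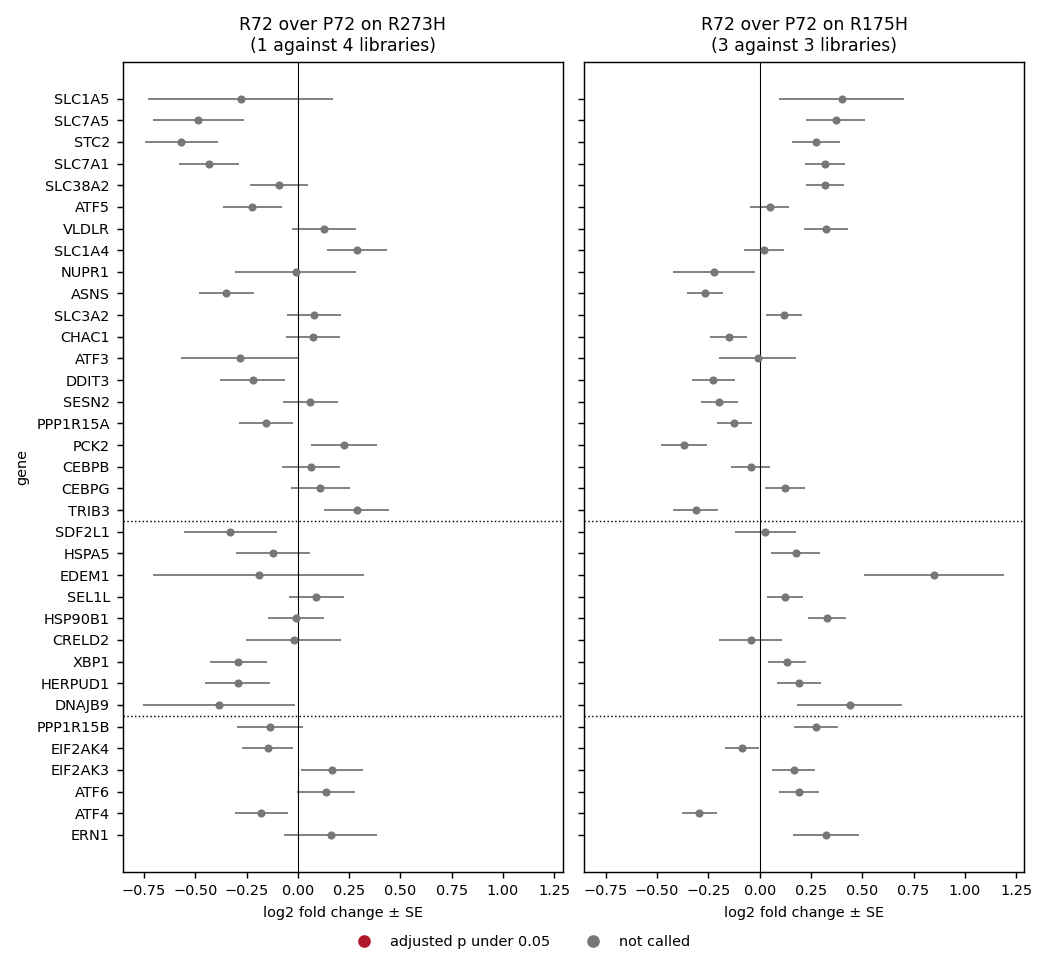
Log2 fold change of R72 over P72 for each member with its SE, on R273H (left, 1 library against 4) and on R175H (right, 3 libraries against 3), in the same gene order; grey marks members that were not called, which is all of them. SLC7A5, STC2 and SLC7A1 have negative values on R273H and positive values on R175H. The P72 libraries of both sides are also those of the hotspot comparison on P72.

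The difference between both codon 72 effects was tested directly, as the effect on R273H minus that on R175H. It is equally the hotspot effect on R72 minus that on P72. Its values therefore come from the same libraries as the comparisons above and are not independent of them. It passed for 0 of 35 members, beside 0.0306% of all genes (edgeR), and 8 had an unadjusted p under 0.05, beside 10.2%. For 3 of these the value was at least 0.75 below 0: SLC7A1 (-0.75, SE 0.19, edgeR adjusted p = 0.163), STC2 (-0.84, SE 0.23) and SLC7A5 (-0.86, SE 0.28), while TRIB3 (0.60, SE 0.21) and PCK2 (0.60, SE 0.21) had positive values. DESeq2 called STC2 and SLC7A1, and limma-voom called 0. With the filter at 10 CPM in 3 libraries 8 members had an unadjusted p under 0.05, beside 14% of genes then tested.

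On R72 the hotspots could be compared only as 1 R273H library against 3 R175H libraries. Here 0 of 35 members passed, beside 0.0429% of all genes, with edgeR, and likewise 0 with DESeq2 and limma-voom. An unadjusted p under 0.05 was found for 6 members (17.1%), beside 4.62% of all genes, all with lower values in R273H R72: PPP1R15A (-0.49, SE 0.12), SESN2 (-0.35, SE 0.13), DDIT3 (-0.41, SE 0.15), TRIB3 (-0.37, SE 0.15), ATF4 (-0.27, SE 0.12) and ASNS (-0.28, SE 0.12). With the filter at 10 CPM in 3 libraries 4 members had such a p, beside 4.33% of genes then tested. For SLC7A1 the value was -0.09 with a 95% interval of -0.37 to 0.18, and for HSPA5 it was -0.04 with an interval of -0.39 to 0.30. The median log2 change on R72 was -0.14 over the ATF4 arm. It was -0.04 over the XBP1 and ATF6 arm, where 6 of 9 genes had negative values.

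Over all 4 groups together, 12 of 35 members (34.3%) differed, beside 10.7% of all genes tested. They were 10 genes of the ATF4 arm (TRIB3, SESN2, PPP1R15A, SLC7A1, PCK2, SLC38A2, DDIT3, STC2, ASNS and CEBPB), HSP90B1 and ATF4. ASNS passed here (edgeR adjusted p = 0.0168) although no single pair of groups tested was called for it. Its lowest value, 801 CPM, was in the single R273H R72 library, a group assumed to vary like the others. R273H R72 against R175H P72 was not tested as a pair. With the filter at 10 CPM in 3 libraries 13 members differed over the 4 groups, beside 19.4% of genes then tested.

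The batch term was itself called for 6 of 35 members (17.1%), beside 9.21% of all genes. With the filter at 10 CPM in 3 libraries it was called for 7 members, beside 18.3% of genes then tested. ATF4 (0.39, SE 0.08) and SESN2 (0.34, SE 0.09) were higher in b1 than in b2, and DNAJB9 (-1.41, SE 0.25), CEBPG (-0.62, SE 0.10), HERPUD1 (-0.44, SE 0.10) and HSP90B1 (-0.35, SE 0.09) were lower in b1. DNAJB9 had 9.38 CPM in the b1 library of R175H R72, against 26.7 and 14.2 CPM in its b2 libraries, and 19.1 CPM in R273H R72. CEBPG had 86.6 CPM in the b1 library of R175H R72, against 146 and 128 CPM in b2, and 123 CPM in R273H R72. HERPUD1 was at 67.1, 59.6 and 62.9 CPM in the b1 libraries of R273H P72, against 84.0 CPM in its b2 library, and at 56.2 CPM in the b1 library of R175H R72, against 86.2 and 69.6 CPM in b2. For all 3 genes each b1 library was thus below the b2 libraries of its group, while HERPUD1 in the R175H P72 libraries, all b2, was at 68.9, 58.7 and 75.9 CPM. The batch term rests on the 2 groups that hold both batches, R273H P72 and R175H R72, and it was called for 1 member without R273H P72 replicate 1 and for 2 without R175H R72 replicate 1. CEBPG stayed called in both fits, at -0.67 and -0.59, and DNAJB9 without R175H R72 replicate 1, at -1.60. The call of ATF4 was lost in both, with values of 0.34 and 0.42. That of DNAJB9 was lost without R273H P72 replicate 1, at -1.14. SESN2, HSP90B1 and HERPUD1 were called in neither.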

How the data were processed

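Messenger RNA of 11 H1299 libraries was measured with Lexogen QuantSeq 3′ tags, read as single 75 bp reads. As deposited by the authors, each value is an estimated count per Ensembl gene, already a whole number, so that rounding changed none. Per the submitters' processing notes the tools were Bowtie2, RSEM 1.2.12 and DESeq2 on hg38; their order and the strand setting are not given in the sources used here. RSEM shares out reads with several matches, which can split tags of overlapping genes.

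Groups and batches came from the labels. Genes were kept with edgeR's filterByExpr (minimum count 10, minimum total 15), scaled by TMM (factors 0.979 to 1.03) and tested by robust quasi-likelihood in edgeR 4.0.16 (R 4.3.3), as 4 groups plus batch over all libraries. The procedure was tested on simulated data. Those data held no batch effect, and only the hotspot comparison on P72 was read from them. All 12 replicate pairs differed beyond sampling noise, with a chi-square of 4.24 to 20.1 per degree of freedom. Gene coordinates and GC content come from GENCODE 29 (hg38), promoter windows from RefSeq.

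Members, arms and wider lists were chosen with earlier results of these data known. Values per library are given for called members and for ATF4, DDIT3, XBP1, HSPA5 and ASNS; from each wider list up to 4 called genes with the smallest p are named. The alternatives tried were DESeq2 1.42.0, scaling by RLE or by library totals, leaving out the filter or setting it at 10 CPM in 3 libraries, limma-voom (limma 3.58.1), no batch term, batch b2 alone, the replicate number as a block, a GC correction, each library left out, and, added after seeing the data, 1 codon 72 effect common to both hotspots.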

Additional observations from a re-analysis of the deposited data

Results flagged for a closer look

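Within R273H P72, the only group of 4 libraries, 4 of 35 members had 1 library far from the others by Dixon's test. The gap is set to arise by chance in about 1 in 20 groups of like libraries. These libraries are not alike in batch, so that rate does not apply here. The share of all genes with such a gap is not given here, so the count of members cannot be read against it. TRIB3 stood apart at 272.2 CPM in replicate 3, against 204.5 to 215 CPM in the others. In replicate 1, the only b2 library of the group, CHAC1 was low at 76.14 CPM, against 87.44 to 89.39 CPM, CEBPB was high at 235.2 CPM, against 199.3 to 204.6 CPM, and CEBPG was high at 111.9 CPM, against 70.15 to 77.05 CPM. Replicate 1 differs from the others of its group in batch and in GC slope, and the part of either in these values was not tested.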

How the results depend on the processing

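No called member changed sign under any alternative run. For the hotspot on P72, where 13 members were called, batch b2 alone gave 7 (5.38% of all genes, against 14.6%), and leaving out each library gave 6 to 15. For codon 72 on R175H, where 0 were called, no filter gave 7 (2.23% of all genes) and DESeq2 3 (3.68%), and leaving out each library gave 0 to 1. For codon 72 on R273H no filter gave 1 (0.541%) and DESeq2 1 (3.35%). For the difference of the effects no filter gave 3 (0.774%) and DESeq2 2 (2.31%). The DESeq2 shares are only of genes to which it gave an adjusted p: 9043 on R175H, 3348 on R273H and 5246 for the difference. Some members, such as ATF5 and PCK2 on R273H, were given none, so these shares and member counts rest on unlike sets. Over the 4 groups, where 12 were called, no batch term gave 6 (6.91%). The batch term, with 6 members called, gave 1 to 9 when a library was left out. The cause of these moves was not tested. One codon 72 effect common to both hotspots called 0 members. Deviations from group means in libraries with the same replicate number had correlations of -0.608 to 0.251. Batch was left in these deviations, and the lowest value is of R175H R72 replicate 1 and R273H P72 replicate 1, which differ in batch. The correlations therefore cannot decide whether the numbers pair the samples. With the replicate number as a block the hotspot on P72 gave 12 members, with SLC1A5 called and CEBPB and CHAC1 not. The 4 groups then gave 6 and the batch term 2. Leaving out R273H R72 replicate 3 leaves no value for the comparisons that need it, and the batch term has none with no batch term or in b2 alone. Depth limits EDEM1, ATF3 and NUPR1 most, and the single R273H R72 library limits each comparison that holds it.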
